A study of Mus musculus with 14 samples.

Results

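A set of 10 genes that govern the passage from G1 into S phase was followed in mouse kidney after acute kidney injury (AKI): the D-type cyclins Ccnd1, Ccnd2 and Ccnd3, the E-type cyclins Ccne1 and Ccne2, the CDK inhibitors Cdkn1b, Cdkn1c and Cdkn2b, the transcription factor Myc and the transcription factor E2f1. They were chosen by gene symbol, with earlier results of these data known, and all 10 were found once each among the 24411 genes of the count tables. All 10 passed the filter on low counts that kept 14300 genes for testing. Over all libraries, Myc rose 9.63-fold at day 1 and was still 2.83-fold above day 0 at day 3. Cdkn1b fell at day 1 and Ccne1 rose at day 3, while the 3 D-type cyclins did not pass the test on either day. Day 0 held only libraries with 1-digit names, a format described below. Among 1-digit libraries Myc passed edgeR's test on both days. Cdkn1b at day 1 (adjusted p = 0.0505) and Ccne1 at day 3 (adjusted p = 0.222) did not.

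D-type cyclins activate CDK4 and CDK6 in response to growth signals, and E-type cyclins activate CDK2 later in G1. Both kinases phosphorylate the retinoblastoma family, which releases E2F factors such as E2F1 to transcribe genes for DNA replication, Ccne1, Ccne2 and E2f1 among them. Cdkn1b and Cdkn1c encode p27 and p57, inhibitors of cyclin-CDK complexes, Cdkn2b encodes p15, an inhibitor of CDK4 and CDK6, and Myc is an early growth response gene that promotes ribosome production and cell cycle entry. Tubular epithelium of the adult kidney divides rarely at rest and re-enters the cycle after injury.

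Bulk RNA of whole kidney was sequenced from male C57/B6 mice aged 8 weeks, with 4 libraries of day 0, 5 libraries of day 1 and 5 libraries of day 3. The study describes the injury as renal ischemia-reperfusion, and the library names call the day 0 samples controls; whether those kidneys had sham surgery is not given in the sources used here. No transgene or other treatment is given for any group. The labels do not say that replicates are separate animals, so p-values measure the spread between these samples. In bulk kidney, fewer cells of a type and less RNA per cell cannot be told apart.

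Each library held between 12485579 and 20476979 reads on genes, and 29.0% to 38.3% of its counted reads were not assigned to a single gene. Library names carry a replicate number written either with 3 digits or with 1. The 3-digit names belong to replicates 1 and 2 of day 1 and to replicates 1 to 3 of day 3, and the 1-digit names to every other library. What the number format marks is not stated, but it separated libraries strongly. Within day 1, 35% of the tested genes differed between the 3-digit and 1-digit libraries at an adjusted p under 0.05, and 1 of the 10 genes described here, Ccnd2, was among them. Within day 3 the share was 18.5%, and 3 of the 10, Ccne1, Ccne2 and E2f1, were among them. The difference of these 2 format effects was called for 17.6% of the genes and for 0 of the 10 by edgeR's quasi-likelihood test, with 0 of the 10 at an unadjusted p under 0.05 and 0 by DESeq2. Day 0 has 1-digit libraries only, so a comparison with day 0 can be made within the 1-digit format but not within the 3-digit format, and values of 3-digit libraries against day 0 are also comparisons across formats. For the 10 genes, values by format are given where they change a result. Calls of the gene lists read below against day 0 pool both formats.

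Promoter sequences from RefSeq (GRCm38.p6) were at hand for 5 of the 10 genes: Ccnd3, Ccne1, Cdkn1b, Cdkn2b and E2f1. The windows run from 250 bases before to 50 bases after an annotated start. The 100 bases upstream of the GENCODE starts of Ccne1 and Cdkn1b are shown 5′ to 3′ because these genes passed the test, with CG pairs in capitals. They hold 17 and 11 CG pairs, against a median of 2 and 3 in the same stretch of all RefSeq promoters.
Ccne1, chr7:38107535-38107634, minus strand: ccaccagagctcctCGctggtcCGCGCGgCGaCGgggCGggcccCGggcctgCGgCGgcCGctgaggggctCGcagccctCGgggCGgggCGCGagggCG
Cdkn1b, chr6:134920301-134920400, plus strand: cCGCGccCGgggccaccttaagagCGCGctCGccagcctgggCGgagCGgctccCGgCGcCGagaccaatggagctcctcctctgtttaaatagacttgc

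The letters TTTCCCGC, TTTGGCGC, TTTCGCGC and TTTGCCGC were searched on both strands as forms of the E2F site, and CACGTG as the E-box that Myc-Max dimers bind. None of the 6 windows of the 5 genes held either motif. The annotated start that places the E2f1 window lies 294 bases from the nearest GENCODE start, so the window does not show that gene's upstream region. E2F letters were in 2.26% of the 32851 RefSeq promoters and in 7 of the 16 windows of the E2F target genes listed below, or 43.8%. The E-box was in 7.15% of all promoters and in 3 of the 11 windows of the Myc target genes, or 27.3%. A match is a description of letters and not a bound site. The stretches below lie upstream of starts of target genes whose levels are given later, with the motif in capitals and read along the strand of the gene. Matches can overlap, as they do in Mcm5, where TTTGGCGC on the opposite strand begins within the marked TTTCGCGC.
Pola1, chrX:93632270-93632309, minus strand, E2F: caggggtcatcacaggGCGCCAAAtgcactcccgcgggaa
Mcm6, chr1:128359729-128359768, minus strand, E2F: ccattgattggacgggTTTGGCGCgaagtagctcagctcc
Mcm5, chr8:75109340-75109379, plus strand, E2F: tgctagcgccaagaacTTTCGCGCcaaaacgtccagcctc
Cdc6, chr11:98907997-98908036, plus strand, E2F: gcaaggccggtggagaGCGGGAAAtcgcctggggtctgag
Apex1, chr14:50924909-50924946, plus strand, E-box: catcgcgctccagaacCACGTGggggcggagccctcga
Ldha, chr7:46845740-46845777, plus strand, E-box: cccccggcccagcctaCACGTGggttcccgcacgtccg

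Levels are given as CPM, the read count of a gene scaled to a common library size (reads on genes, TMM factors). To compare genes, CPM was divided by the exon length of each gene in GENCODE. Ccnd1 was by far the most abundant of the 10 per kilobase, at 62.1 ± 11.8 (SD, n = 4) CPM per kilobase at day 0, and its libraries did not overlap those of any other member. Cdkn1c, Ccnd3 and Cdkn1b followed at 10.8, 9.66 and 9.65 CPM per kilobase, with ranges that overlapped. Below them came Cdkn2b at 4.01, Myc at 2.51, E2f1 at 1.77, Ccnd2 at 0.854, Ccne2 at 0.693 and Ccne1 at 0.396 CPM per kilobase, where the range of each gene overlapped that of its neighbour in this order. At day 1 the order changed in its second place, where Myc stood at 24.2 ± 4.17 (SD, n = 5) CPM per kilobase, with every library above all those of Cdkn1c. At day 3 Myc had moved down, below Cdkn1b, to 7.12 ± 2.58 (SD, n = 5) CPM per kilobase.

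**Figure D1:**
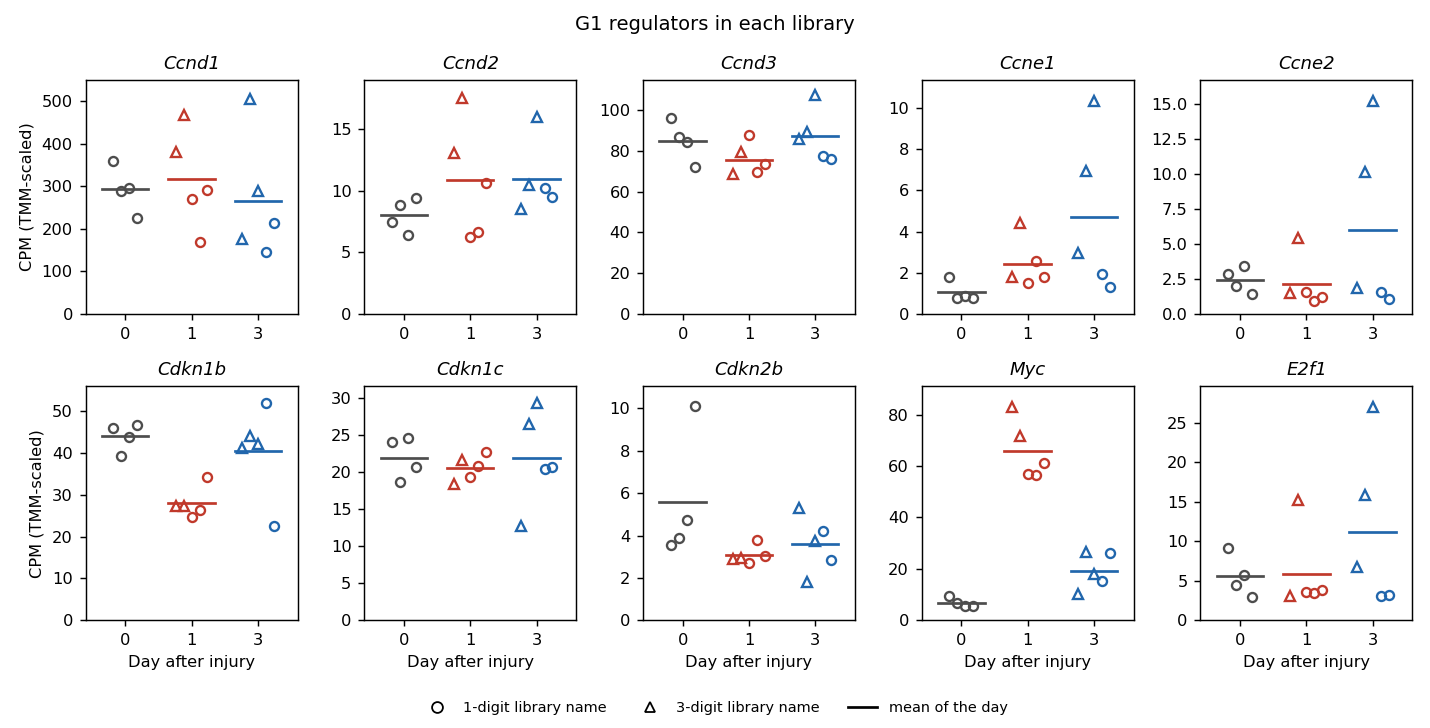
CPM of each gene (y axis, from 0) by day (x axis), with 1 point per library, circles for 1-digit and triangles for 3-digit library names, and a line at the mean of the day. The 5 day 1 libraries of Myc lie between 56.6 and 82.8 CPM, above all others, and the day 3 values of Ccne1, Ccne2 and E2f1 are spread mainly by 2 of the 3 triangles.

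At day 1, 2 of the 10 genes passed the test against day 0 (1 higher, 1 lower), where 42.1% of all 14300 tested genes passed (23.3% higher and 18.7% lower), so the share among the 10 was below that of all genes. The same 2 genes had day 1 and day 0 libraries that did not overlap, against 42% of all genes. At day 3, 2 of the 10 passed, both higher, where 33.3% of all genes passed (19.5% higher and 13.8% lower). For 1 of them the libraries did not overlap, against 33.4% of all genes. Between day 3 and day 1, 1 of the 10 passed and its libraries did not overlap, where 15.9% of all genes passed and 7.61% did not overlap. The median log2 fold change of the 10 was -0.01 at day 1 and 0.24 at day 3, beside 0.01 and 0.05 over all genes tested. The day 1 and day 3 comparisons share the day 0 libraries.

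**Figure D2:**
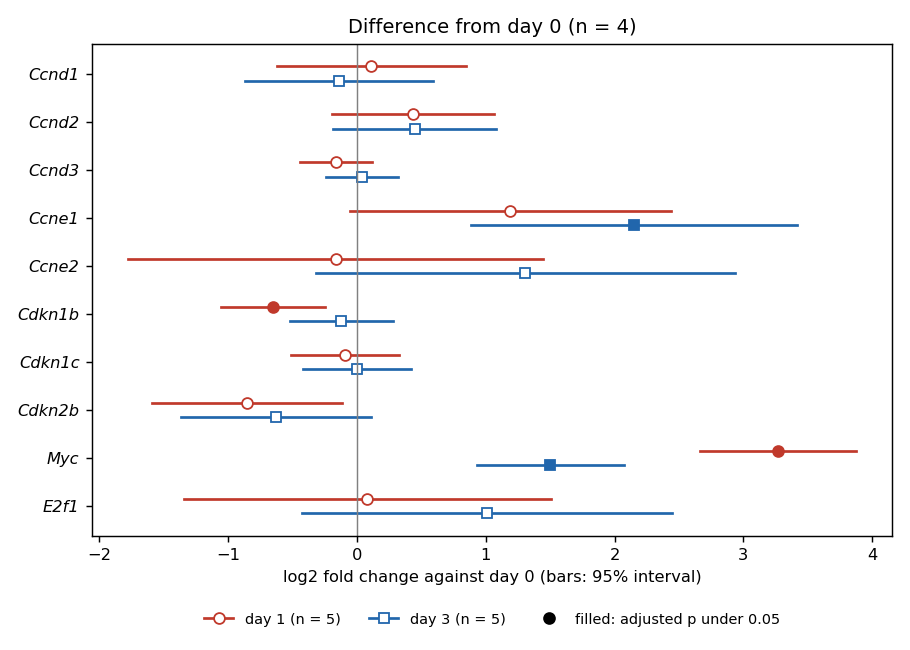
Log2 fold change against day 0 (x axis) of each gene (y axis), with 95% intervals from edgeR, for day 1 (circles) and day 3 (squares), filled where the adjusted p was under 0.05. Filled symbols stand at Myc on both days (3.27 and 1.501), at Cdkn1b at day 1 (-0.65) and at Ccne1 at day 3 (2.15).

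Ccnd1 (ENSMUSG00000070348.5, chr7:144929931-144939925, minus strand), the main D-type cyclin of epithelia, did not pass the test on either day. Its day 0 libraries held 360, 288, 296 and 225 CPM. The day 1 libraries held 380 and 467 CPM in the 3-digit format and 271, 169 and 291 CPM in the 1-digit format. Those of day 3 held 176, 505 and 289 CPM (3-digit) and 145 and 214 CPM (1-digit). The days overlapped throughout, and the highest and lowest values of the series were both from day 3. Ccnd1 had a log2 fold change of 0.11 ± 0.34 (SE) at day 1 and -0.14 ± 0.34 (SE) at day 3, with 95% intervals of -0.62 to 0.84 and -0.87 to 0.59. Among 1-digit libraries alone, Ccnd1 was lower at day 3 than at day 0 (log2 fold change -0.69, adjusted p = 0.0407). Within day 1 both 3-digit libraries were above all 3 1-digit libraries, a log2 difference of 0.80 ± 0.36 (SE, adjusted p = 0.0984) that was called when only the day 1 libraries were fitted (0.82, adjusted p = 0.0313), with total counts (1.01, adjusted p = 0.0452) and without replicate 1 or 2 of day 3 (0.80 each, adjusted p = 0.0427 and 0.0370). Over all fits without 1 library it ran from 0.59 to 0.94, with adjusted p up to 0.361. Within day 3 the log2 difference was 0.85 (adjusted p = 0.119). It was called without replicate 1 of day 3 (1.15, adjusted p = 0.0177) and fell to 0.37 without replicate 2 (adjusted p = 0.442).

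Ccnd2 (ENSMUSG00000000184.12, chr6:127125162-127152193, minus strand), another D-type cyclin, was low. Day 0 libraries ranged from 6.44 to 9.37 CPM. At day 1 the 3-digit libraries held 13.1 and 17.5 CPM and the 1-digit libraries 6.27, 6.69 and 10.6 CPM, so that the 3-digit libraries were the only ones above every day 0 value apart from the library at 10.6. This within-day difference passed the test (log2 difference 0.97 ± 0.29 (SE), adjusted p = 0.0208), but not without replicate 2, 3 or 4 of day 1 (0.74, 0.83 and 0.86, adjusted p = 0.185, 0.0662 and 0.0695), the first of which leaves replicate 1 as the sole 3-digit library of the day. Against day 0, the pooled day 1 log2 fold change was 0.44 (95% interval -0.20 to 1.07) and did not pass, while the 3-digit libraries of day 1 were higher than day 0 (0.94, adjusted p = 0.0167) and the 1-digit libraries alone were at -0.01. Day 3 libraries held 8.55, 10.5, 15.99, 10.2 and 9.48 CPM in the order of their replicate numbers, and the log2 fold change was 0.45 (95% interval -0.18 to 1.08).

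Ccnd3 (ENSMUSG00000034165.16, chr17:47505051-47599691, plus strand), the third D-type cyclin, varied least of the cyclins. Libraries ranged from 72.0 to 96.1 CPM at day 0, from 68.5 to 87.6 CPM at day 1 and from 75.8 to 107 CPM at day 3. The ranges overlapped on all 3 days. Log2 fold changes were -0.16 at day 1 and 0.04 at day 3, with 95% intervals of -0.44 to 0.12 and -0.24 to 0.32, so neither day differed from day 0 by more than these bounds.

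Ccne1 (ENSMUSG00000002068.16, chr7:38097984-38107534, minus strand), whose product drives CDK2 at the G1/S boundary, had the lowest level per kilobase at day 0 and rose at day 3. Day 0 libraries held 1.78, 0.765, 0.884 and 0.786 CPM, which rest on 13 to 31 reads. At day 1 the libraries held 1.78, 4.41, 1.499, 2.57 and 1.77 CPM in the order of their replicate numbers. On day 3 the 3-digit libraries held 2.95, 6.93 and 10.3 CPM and the 1-digit libraries 1.95 and 1.32 CPM. Replicate 1 of day 0 stood above its group and overlapped the lower libraries of both later days. The log2 fold change was 2.15 ± 0.59 (SE) at day 3 (4.44-fold, adjusted p = 0.0134) and 1.19 ± 0.58 (SE) at day 1 (adjusted p = 0.111). Day 1 passed when day 0 and day 1 were fitted alone (1.20, adjusted p = 0.0351) and for its 3-digit libraries against day 0 (1.55, adjusted p = 0.0472). The day 3 call was lost with the number format as a term (1.10, adjusted p = 0.113) and among 1-digit libraries (0.65, adjusted p = 0.222), and it held for the 3-digit libraries of day 3 against day 0 (2.66, adjusted p = 0.00383).

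Ccne2 (ENSMUSG00000028212.16, chr4:11191351-11204779, plus strand), the second E-type cyclin, did not pass the test against day 0 on either day. Day 0 libraries held 2.82, 2.00, 3.41 and 1.45 CPM. At day 1 one 3-digit library, replicate 2, held 5.45 CPM, and the other 4 held 0.914 to 1.57 CPM. At day 3 the 3-digit replicates 2 and 3 held 10.1 and 15.2 CPM, while the 3-digit replicate 1 held 1.83 CPM and the 1-digit libraries held 1.55 and 1.10 CPM. Of the 14 libraries, 3 were thus above the whole day 0 range, all of them 3-digit. This gave a log2 fold change of -0.17 (95% interval -1.77 to 1.44) at day 1 and 1.31 (95% interval -0.32 to 2.93) at day 3. Among 1-digit libraries Ccne2 was lower at day 1 than at day 0 (-0.94, adjusted p = 0.0434), and at -0.84 at day 3 (adjusted p = 0.107), whereas the 3-digit libraries of day 3 were higher than day 0 (1.90, adjusted p = 0.0465). Day 3 stood 1.47 log2 units from day 1 (adjusted p = 0.169), a difference that was called without replicate 2 of day 1 (2.20, adjusted p = 0.0419) and was 0.77 without replicate 3 of day 3 (adjusted p = 0.489). The format difference within day 1 was 1.51 (adjusted p = 0.118). It was called without replicate 1 of day 3 (1.51, adjusted p = 0.0323). Without replicate 2 of day 1, which leaves a sole 3-digit library of the day, the format difference was 0.30. With counts made without regard to strand it was -0.37 (adjusted p = 0.674). Ccne2 shares 609 exon bases with Ints8 on the opposite strand. Except where stated, values use the read count for the strand of each gene. The count without regard to strand was lower in some libraries, such as replicate 3 of day 3 (101 against 307 reads). It was higher in others, such as replicate 3 of day 1 (32 against 23 reads).

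E2f1 (ENSMUSG00000027490.17, chr2:154559407-154569892, minus strand), which activates genes of DNA replication, was highest in the same libraries as Ccne2. Its day 0 libraries held 9.15, 4.47, 5.69 and 2.96 CPM. At day 1 replicate 2 held 15.3 CPM and the other 4 libraries held 3.13 to 3.86 CPM. On day 3 the 3-digit libraries held 6.82, 15.8 and 27.0 CPM and the 1-digit libraries 3.03 and 3.23 CPM. The days overlapped, and the log2 fold change was 0.08 (95% interval -1.34 to 1.503) at day 1 and 1.01 (95% interval -0.43 to 2.45) at day 3, neither past the threshold. The sign of the change differed between the formats, with no value past the threshold: E2f1 was at -0.58 and -0.81 at day 1 and day 3 among 1-digit libraries (adjusted p = 0.149 and 0.0968), and at 0.73 and 1.57 for the 3-digit libraries of these days against day 0 (adjusted p = 0.395 and 0.0649). With the number format as a term the values were -0.82 and -0.47 (adjusted p = 0.183 and 0.522). Within day 1 the format difference was 1.35 (adjusted p = 0.107). It rested on replicate 2, being 2.06 without replicate 1 (adjusted p = 0.0252) and -0.21 without replicate 2 (adjusted p = 0.861), and both of these fits leave a sole 3-digit library of the day, assumed to vary like the other groups.

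Within day 3, the 3-digit libraries were higher than the 1-digit libraries in Ccne1 (log2 difference 2.03 ± 0.58 (SE), adjusted p = 0.0305), Ccne2 (2.76 ± 0.78 (SE), adjusted p = 0.0301) and E2f1 (2.40 ± 0.68 (SE), adjusted p = 0.0305). These 3 calls rest on few libraries. Each was lost when replicate 2, 3, 4 or 5 of day 3 was left out, with log2 differences of 1.59 to 2.34 and adjusted p of 0.0629 to 0.204 for Ccne1, 2.17 to 3.03 and 0.0649 to 0.194 for Ccne2, and 1.86 to 2.43 and 0.0585 to 0.172 for E2f1. Without replicate 4 or 5 the day has a sole 1-digit library, and those fits assume that it varies like the other groups. The 3 calls were also lost when only the day 3 libraries were fitted (adjusted p = 0.128, 0.140 and 0.0980). That of Ccne2 was lost with counts made without regard to strand (1.79, adjusted p = 0.0756). No member of the 10 other than these 3 differed between the formats at day 3 at the adjusted threshold. The share of all genes called at day 3 depended on single libraries: 2645 genes with all libraries, 91 without replicate 5, which again leaves a sole 1-digit library, and 4771 without replicate 1.

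**Figure D3:**
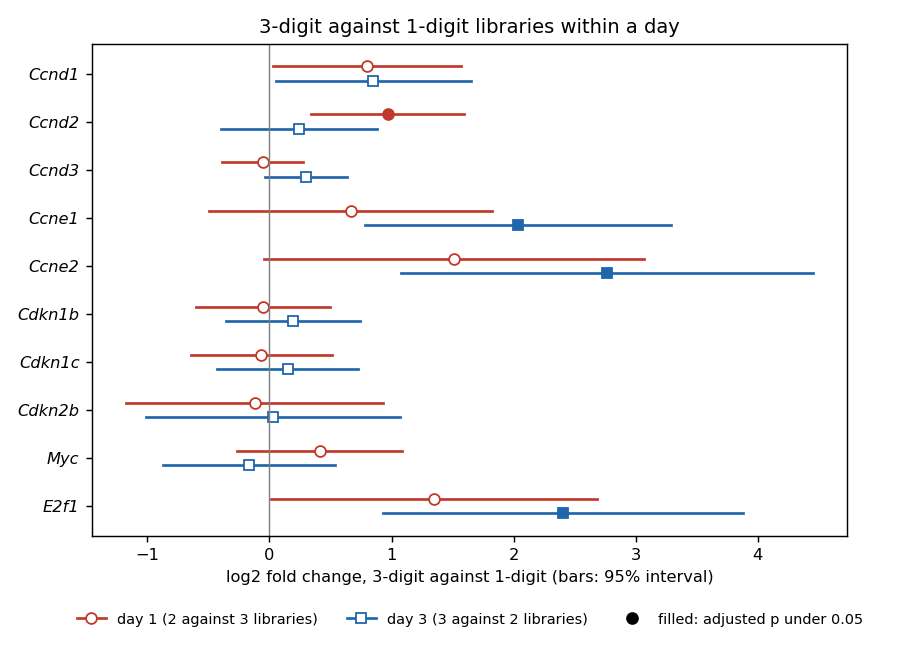
Log2 difference of 3-digit against 1-digit libraries (x axis) of each gene (y axis) within day 1 (circles) and day 3 (squares), with 95% intervals, filled where the adjusted p was under 0.05. The filled symbols are Ccnd2 at day 1 (0.97) and Ccne1, Ccne2 and E2f1 at day 3 (2.03, 2.76 and 2.40).

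The proliferation markers, a list of 10 genes of G2 and mitosis such as Mki67, Top2a and Ccnb1, moved with the day 3 result. Of the E2F target genes of S phase, a list of 18 genes such as Pcna, the Mcm helicase genes and Rrm2, 9 rose at day 3 and 6 were higher in the 3-digit libraries of that day. The called shares of all tested genes were 33.3% for day 3 against day 0 and 18.5% for the formats within day 3. All 10 proliferation markers rose from day 0 to day 3, with a median log2 fold change of 3.46, and within day 3 all 10 were higher where names had 3 digits, by a median of 3.21. Their summed level was 12.9 to 42.7 CPM at day 0. Day 3 gave 368, 481 and 615 CPM for names with 3 digits against 62.4 and 25.0 CPM for names with 1 digit. At day 1, 0 of the 10 passed edgeR's test, with 0 at an unadjusted p under 0.05 and 0 by DESeq2, and the sums were 24.1, 56.0, 19.3, 28.9 and 28.0 CPM. No marker of the list was at 0 in a whole day. Their part in the differences of Ccne1, Ccne2 and E2f1 was not tested.

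Cell type markers were also compared between the formats. Of all tested genes, 35% were called within day 1 and 18.5% within day 3. Counts of 3 of 8 or fewer within day 1, and of 2 of 8 or fewer within day 3, were near or below these shares. Within day 1, 7 of 12 proximal tubule markers were lower in the 3-digit libraries, with sums of 18809 and 29448 CPM against 36723 to 48062 CPM, and 7 of 8 smooth muscle markers were higher, with sums of 620 and 687 CPM against 354 to 436 CPM. Higher there were also 4 of 8 fibroblast and pericyte markers, 3 of 8 urothelial and 2 of 8 collecting duct markers. Podocyte markers were called in both directions (2 higher, 2 lower), as were endothelial markers (1 higher, 2 lower). Of 8 macrophage markers, 0 passed edgeR's test at day 1, with 4 at an unadjusted p under 0.05 and 2 by DESeq2. Within day 3, 6 of 12 proximal tubule markers were higher in the 3-digit libraries (10682 to 20627 CPM against 9592 and 12104 CPM), as were 4 of 8 macrophage markers, with 1 lower, and 2 of 8 collecting duct markers. Lower there were 4 of 8 endothelial markers (229 to 386 CPM against 512 and 850.4 CPM), 3 of 8 smooth muscle, 2 of 8 fibroblast and pericyte, 2 of 8 podocyte and 1 of 8 urothelial markers. Of the lymphocyte markers, 2 were tested, and 0 differed by format on either day by edgeR or DESeq2 or at an unadjusted p under 0.05. The part of these markers in the format differences of Ccnd2, Ccne1, Ccne2 and E2f1 was not tested. The proximal tubule sums lean on Kap, which alone averaged 25993 CPM over the day 1 and 5641 CPM over the day 3 libraries.

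The libraries were not ordered alike by Ccne2 or E2f1 and by the proliferation markers. Replicate 1 of day 3 had a proliferation sum of 368 CPM, beside 481 and 615 CPM in replicates 2 and 3, yet its Ccne2 level of 1.83 CPM lay within the day 0 range of 1.45 to 3.41 CPM and its E2f1 level of 6.82 CPM lay within the day 0 range of 2.96 to 9.15 CPM. Its Ccne1 level of 2.95 CPM, by contrast, was above every day 0 library (0.765 to 1.78 CPM). Replicate 2 of day 1 had 5.45 CPM of Ccne2 and 15.3 CPM of E2f1, both above every day 0 library, with a proliferation sum of 56.0 CPM. This sum was the highest of day 1 and above every day 0 library, but it was close to the 62.4 CPM of replicate 4 of day 3, in which Ccne2 (1.55 CPM) and E2f1 (3.03 CPM) lay within the day 0 ranges. Its summed level of the 18 E2F targets was 775 CPM, against 331 to 347 CPM in the other day 1 libraries and 247 to 426 CPM at day 0. These are single libraries, and no test was run on them.

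**Figure D4:**
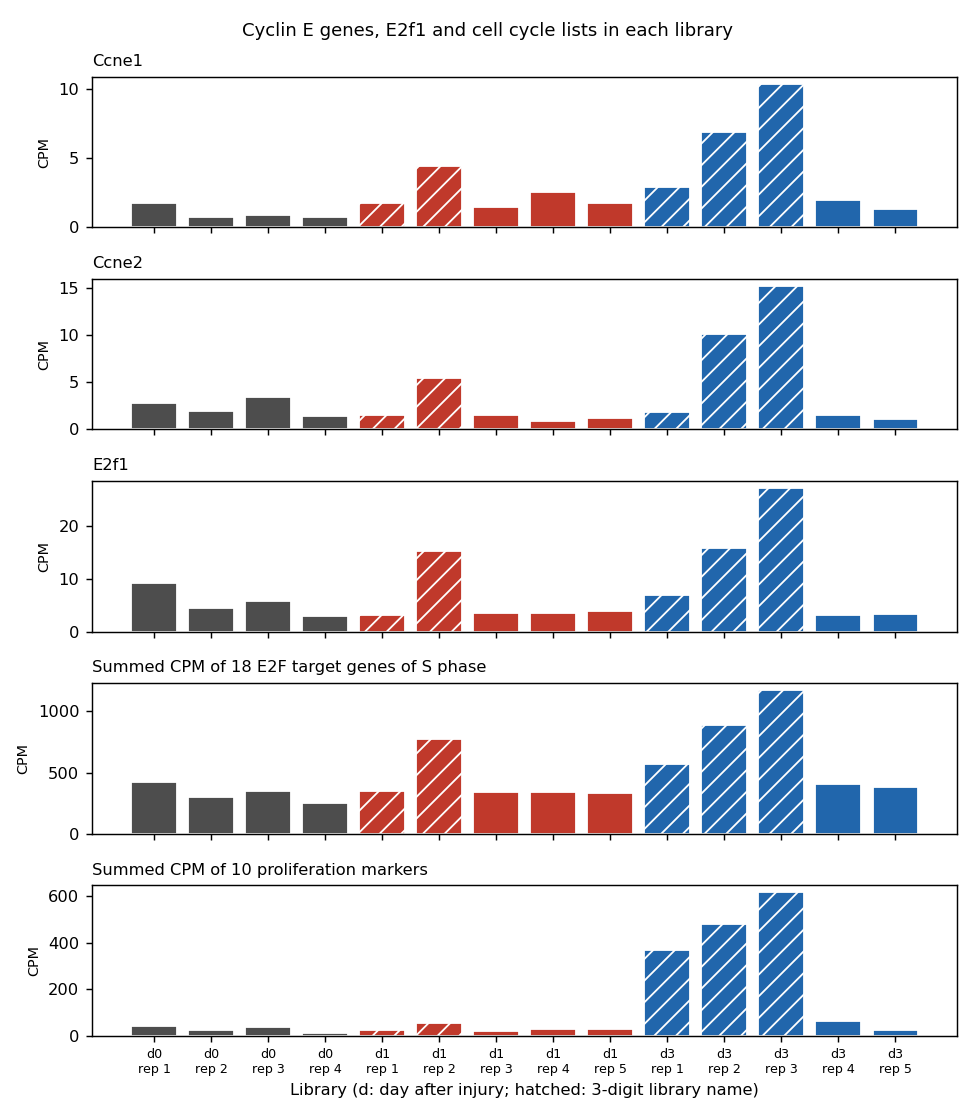
CPM (y axes, from 0) of Ccne1, Ccne2 and E2f1 and the summed CPM of 18 E2F target genes and of 10 proliferation markers in each of the 14 libraries (x axis), coloured by day and hatched for 3-digit names. Replicate 2 of day 1 is the highest day 1 library in all 5 panels (775 CPM of E2F targets), but its proliferation sum (56.0 CPM) is far below those of the 3-digit day 3 libraries (368 to 615 CPM), and replicate 1 of day 3 has a high proliferation sum (368 CPM) with Ccne2 at 1.83 CPM.

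Cdkn1b (ENSMUSG00000003031.14, chr6:134920401-134925513, plus strand), which encodes the inhibitor p27, fell at day 1. Its day 0 libraries held 45.9, 39.2, 43.8 and 46.7 CPM. At day 1 they held 27.3, 27.3, 24.7, 26.4 and 34.3 CPM in the order of their replicate numbers, so that all 5 lay below all 4 day 0 libraries. The log2 fold change was -0.65 ± 0.19 (SE), or 0.637-fold (adjusted p = 0.0132). The 3-digit libraries of day 1 gave -0.68 against day 0 (adjusted p = 0.00114), and 1-digit libraries alone gave -0.60, which did not pass (adjusted p = 0.0505). Day 3 libraries held 41.2, 44.1, 42.2, 51.8 and 22.5 CPM, which puts 4 within or above the day 0 range and replicate 5 below every other library of the series. The day 3 log2 fold change against day 0 was -0.12 (95% interval -0.52 to 0.28). Day 3 was not called against day 1 with all libraries (0.53 ± 0.18 (SE), adjusted p = 0.0568) and was called without replicate 5 of day 3 (0.66, adjusted p = 0.00294), with DESeq2 (0.51, adjusted p = 0.0452), with scaling by total counts (0.68, adjusted p = 0.0220) and among 3-digit libraries (0.63, adjusted p = 0.00747). Among 1-digit libraries it was 0.38 (adjusted p = 0.319). The formats did not pass within day 3 (0.19, adjusted p = 0.608) but did without replicate 4 (0.92, adjusted p = 0.0105), which leaves replicate 5 as the sole 1-digit library, assumed to vary like the other groups; the difference of the format effects then was 0.97 (adjusted p = 0.0185). Without replicate 5, with replicate 4 as the sole 1-digit library, the difference within day 3 was -0.31 (adjusted p = 0.323).

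Cdkn1c (ENSMUSG00000037664.13, chr7:143458339-143461050, minus strand), which encodes p57, a CDK inhibitor of quiescent cells, showed no call in any comparison. Libraries ranged from 18.6 to 24.5 CPM at day 0, from 18.3 to 22.7 CPM at day 1 and from 12.7 to 29.2 CPM at day 3. The lowest and the highest value were both 3-digit libraries of day 3. Its log2 fold change was -0.09 (95% interval -0.51 to 0.33) at day 1 and 0.00 (95% interval -0.42 to 0.42) at day 3.

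Cdkn2b (ENSMUSG00000073802.5, chr4:89306299-89311039, minus strand), which encodes p15, was measured with 32 to 167 reads per library. The day 0 libraries held 3.57, 3.88, 4.74 and 10.1 CPM, and the day 1 libraries 2.91, 2.95, 2.73, 3.77 and 3.06 CPM. Day 1 overlapped day 0 in 1 library, replicate 4 of day 1, and day 0 was spread by its replicate 4. The log2 fold change at day 1 was -0.85 ± 0.35 (SE, adjusted p = 0.0603), and it passed with DESeq2 (-0.85, adjusted p = 0.0433), with at least 10 reads required in every library (-0.88, adjusted p = 0.0466), without replicate 1 of day 0 (-1.02, adjusted p = 0.0461) and without replicate 2 of day 3 (-0.85, adjusted p = 0.0391). It did not pass in the other 12 fits without 1 library, and without replicate 4 of day 0, the library at 10.1 CPM, it shrank to -0.40 (adjusted p = 0.331). Among 1-digit libraries it was -0.77 (adjusted p = 0.0969), and for the 3-digit libraries of day 1 against day 0 it was -0.92 (adjusted p = 0.178). Day 3 libraries ranged from 1.80 to 5.29 CPM, a log2 fold change of -0.63 (95% interval -1.37 to 0.11).

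Myc (ENSMUSG00000022346.15, chr15:61985391-61990374, plus strand) had the largest change of the 10 genes on day 1. Its day 0 libraries held 9.38, 6.71, 5.75 and 5.44 CPM. At day 1 the 3-digit libraries held 82.8 and 71.6 CPM and the 1-digit libraries 56.8, 56.6 and 61.0 CPM. At day 3 the 3-digit libraries held 10.4, 26.7 and 18.2 CPM and the 1-digit libraries 15.3 and 26.1 CPM. The 3 days did not overlap with one another. The log2 fold change against day 0 was 3.27 ± 0.28 (SE) at day 1 (9.63-fold, adjusted p = 5.22e-06) and 1.501 ± 0.27 (SE) at day 3 (2.83-fold, adjusted p = 0.00107), and day 3 was below day 1 (-1.77 ± 0.24 (SE), 0.294-fold, adjusted p = 0.00137). All 3 calls held among 1-digit libraries alone, at 3.12, 1.62 and -1.51. The 3-digit libraries gave 3.50 at day 1 and 1.43 at day 3 against the 1-digit day 0, and -2.07 for day 3 against day 1, all called.

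The immediate early genes, a list of 14 rapidly induced genes such as Fos, Egr1 and Atf3, rose together with Myc at day 1, when 14 of 14 passed the test with a median log2 fold change of 4.03. By number format, however, most of the list and Myc did not run in parallel. On day 1 the list summed to 877 and 634 CPM where names had 3 digits, against 4431, 2827 and 4063 CPM where they had 1, and 12 of the 14 genes were lower in the former (median log2 difference -2.001). Egr2 was higher there (1.28, adjusted p = 0.0344) and Egr3 was not called (-0.92, adjusted p = 0.365). Myc in the same libraries was 71.6 to 82.8 CPM in the 3-digit and 56.6 to 61.0 CPM in the 1-digit format, a log2 difference of 0.41 (95% interval -0.27 to 1.09, adjusted p = 0.330). When only the day 1 libraries were fitted, this difference of Myc passed (0.43, adjusted p = 0.0478), in the direction opposite to those 12 genes. At day 3 the sums were 368 to 701 CPM in the 3-digit and 601 and 909 CPM in the 1-digit libraries, and Myc did not differ by format beyond its error (log2 difference -0.17, 95% interval -0.87 to 0.54).

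**Figure D5:**
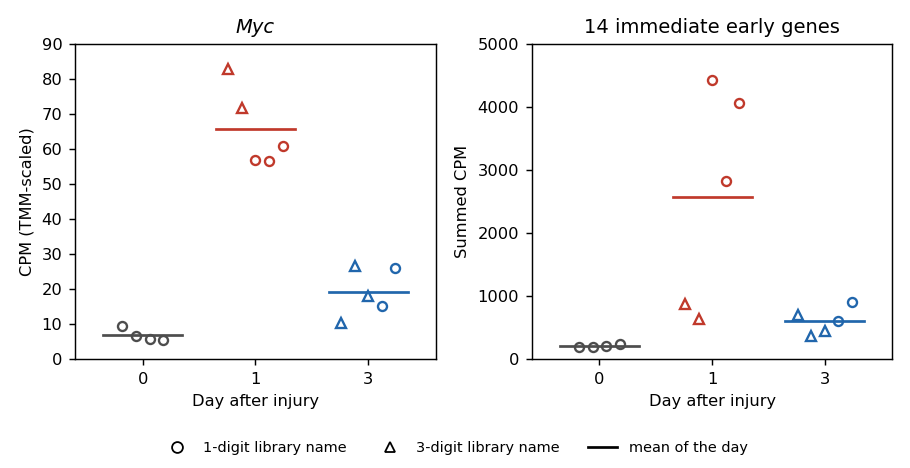
CPM of Myc (left, y axis from 0) and summed CPM of 14 immediate early genes (right, y axis from 0) by day (x axis), with 1 point per library, circles for 1-digit and triangles for 3-digit names, and a line at the mean of the day. At day 1 the triangles are highest for Myc (71.6 and 82.8 CPM) and lowest for the summed immediate early genes (634 and 877 CPM).

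Genes that work with the G1 regulators were read from 6 further lists. Beside the counts of each list, 42.1% of all tested genes were called at day 1 and 33.3% at day 3. Of 19 kinases, retinoblastoma family members and E2F partners, 5 rose and 2 fell at day 1, and 5 rose and 2 fell at day 3 (medians -0.08 and 0.36). The called share of these 19 was below that of all genes at day 1 and near it at day 3. Rbl2, which encodes the pocket protein p130 of quiescent cells, fell from 98.5 ± 6.24 (SD, n = 4) to 34.4 ± 12.2 (SD, n = 5) CPM at day 1 (log2 fold change -1.52, adjusted p = 0.000261). Cdk2, the partner of the E-type cyclins, rose from 9.97 ± 1.87 to 19.9 ± 2.58 CPM at day 1 (0.99, adjusted p = 0.000480) and to 24.1 ± 3.01 CPM at day 3 (1.27, adjusted p = 0.000140). E2f4, an E2F that mainly represses, rose 1.07 log2 units at day 1 (adjusted p = 0.000382), and Cdk6 and E2f3 rose 0.93 and 0.82 log2 units at day 3 (adjusted p = 0.0164 and 0.0191).

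Of 5 other genes named as CDK inhibitors, 4 were tested, and 1 rose at day 1 and 4 at day 3 (medians 0.22 and 2.04). The tested genes include Cdkn3, which encodes a phosphatase that acts on CDKs and not an inhibitor like p21 or p15. Its mean was 0.541 CPM at day 0 and 5.39 ± 4.56 (SD, n = 5) CPM at day 3. The 5 genes summed to 36.4 to 53.4 CPM at day 0. At day 1 they summed to 141 and 247 CPM in the 3-digit and 465 to 717 CPM in the 1-digit libraries. Within day 1, 1 of the 4 was lower in the 3-digit libraries, and within day 3, 2 were higher. The formats differed in 35% of all tested genes within day 1 and in 18.5% within day 3, and 4 genes are too few to set against these shares. Cdkn1a, which encodes the p53 target p21, rose from 27.3 ± 8.23 (SD, n = 4) to 419 ± 241 (SD, n = 5) CPM at day 1 (3.94, adjusted p = 0.000411) and stood at 194 ± 124 CPM at day 3 (2.83, adjusted p = 0.00330). Cdkn2d, which encodes p19, rose from 6.17 to 12.2 CPM at day 3 (0.99, adjusted p = 0.00304). Cdkn2a was not tested, with no read at day 0 and at most 6 reads in any library.

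Of 11 Myc partners and antagonists, 3 rose and 3 fell at day 1, and 1 rose and 2 fell at day 3 (medians 0.26 and 0.26). Of all tested genes, 42.1% and 33.3% were called on these days. Mxi1, a Max partner that opposes Myc, fell from 87.7 ± 9.20 (SD, n = 4) to 47.5 ± 4.22 (SD, n = 5) CPM at day 1 (-0.88, adjusted p = 7.91e-05) and was at 53.4 ± 4.97 CPM at day 3 (-0.72, adjusted p = 0.000490). Mga, another Max partner, fell at day 1 (-0.79, adjusted p = 0.00497), Mlxip rose on both days (0.68 and 0.88, adjusted p = 0.0137 and 0.00438), and Mlx fell at day 3 (-0.70, adjusted p = 0.00448).

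Of 12 Myc target genes, 8 rose and 1 fell at day 1, with a median log2 fold change of 0.91 beside 0.01 over all genes, and 3 rose at day 3 (median 0.19). Nop58, a ribosomal RNA processing factor, rose from 32.2 ± 4.11 (SD, n = 4) to 104 ± 24.0 (SD, n = 5) CPM at day 1 (1.68, adjusted p = 0.000119). Apex1, a DNA repair gene whose upstream E-box is printed above, rose from 22.1 to 51.2 CPM at day 1 (1.21, adjusted p = 0.000365) and was at 49.8 CPM at day 3 (1.17, adjusted p = 0.000665). Ncl, which encodes nucleolin, rose on both days (1.09 and 0.81, adjusted p = 0.000186 and 0.00172), and Npm1, which encodes nucleophosmin, rose at day 3 (0.79, adjusted p = 0.00166). Ldha, a glycolytic enzyme and the other gene with a printed E-box, had mean levels of 799 ± 33.6 (SD, n = 4), 915 ± 35.3 (SD, n = 5) and 799.8 ± 67.6 (SD, n = 5) CPM at day 0, day 1 and day 3. The gene that fell was Shmt1, an enzyme of one-carbon metabolism, with means of 59.6 CPM at day 0 and 31.4 CPM at day 1. The summed level of the list was 2063 to 2248 CPM at day 0 and 2796 to 3303 CPM at day 1. Within day 1 the sums were 2796 and 2870 CPM in the 3-digit and 3203 to 3303 CPM in the 1-digit libraries. By gene, however, 4 of the 12 were higher and 2 lower in the 3-digit libraries, with a median log2 difference of -0.02. The lower sums thus do not describe the list as a whole. By format within day 1, 35% of all tested genes were called.

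Of the 18 E2F target genes of S phase, 4 passed at day 1 and 9 at day 3, all of them higher (medians 0.60 and 1.22). Rrm2, a subunit of ribonucleotide reductase, rose from 6.60 ± 2.46 (SD, n = 4) to 85.8 ± 64.5 (SD, n = 5) CPM at day 3 (3.70, adjusted p = 0.000425), and Mybl2, a cell cycle transcription factor, rose from 0.992 ± 0.278 to 7.95 ± 1.82 CPM (3.00, adjusted p = 3.10e-05). Cdt1, which licenses replication origins, rose from 7.52 ± 3.28 to 22.6 ± 8.96 CPM at day 1 (1.59, adjusted p = 0.00224), and the helicase gene Mcm4 rose on both days (1.04 and 1.29, adjusted p = 0.0264 and 0.0122). By number format, 7 of the 18 were higher and 1 lower in the 3-digit libraries at day 1 (median log2 difference 1.02), and 6 were higher at day 3 (median 1.27). The formats differed in 35% of all tested genes within day 1 and in 18.5% within day 3, so the day 1 count was near its share. Mean levels at day 0, day 1 and day 3 were 7.82, 6.40 and 13.999 CPM for Pola1, 10.2, 20.8 and 37.8 CPM for Mcm6, 14.4, 23.2 and 36.1 CPM for Mcm5, and 0.999, 2.62 and 4.30 CPM for Cdc6, the genes whose upstream E2F letters are printed above.

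A list of 10 genes held ubiquitin ligase parts that act on G1 regulators and the deubiquitinase gene Usp28. Of these, 5 passed at day 1, all higher, and 2 rose and 1 fell at day 3 (medians 0.42 and 0.23). These shares were near the 42.1% and 33.3% of all tested genes called on these days in either direction. At day 1, 23.3% of all tested genes were called higher. Cks1b, the cofactor with which SKP2 marks p27 protein for degradation, rose from 3.06 ± 0.899 (SD, n = 4) to 14.3 ± 6.62 (SD, n = 5) CPM at day 3 (2.22, adjusted p = 0.00188). Cdkn1b RNA was not called at day 3 against day 0, and p27 protein was not measured in these data. At day 1 Fbxo4, an F-box protein, rose from 14.7 to 26.5 CPM (0.86, adjusted p = 0.00380), Cul1, the cullin scaffold of the SCF ligase, rose from 101 to 154 CPM (0.61, adjusted p = 0.0148), and Fbxw7, the F-box protein that recognises cyclin E and MYC, rose from 16.6 to 22.7 CPM (0.45, adjusted p = 0.0480). Btrc, another F-box gene, fell at day 3 (-0.32, adjusted p = 0.0432).

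The pattern of each gene over the 14 libraries was compared with 13325 genes by the root mean square of the differences of their centred log2 CPM, where 0 is an identical pattern. Pola1, the catalytic subunit of DNA polymerase alpha, was nearest to both E2f1 (0.363) and Ccne2 (0.377), and E2f1 and Ccne2 were each other's second nearest gene (0.390). Nearest to Ccne1 were Pkmyt1 (0.295), Cdc45 (0.332) and Lmnb1 (0.366), and Ccne1 and E2f1 were 0.630 apart. The genes nearest to Myc, F3 (0.510), Krt8 (0.510) and Ch25h (0.530), were further from it than those of the other 9 genes from theirs. The nearest genes were Htra2 (0.209) for Ccnd1, Ankrd49 (0.232) for Ccnd2, Tmed3 (0.125) for Ccnd3, Dach1 (0.173) for Cdkn1b, Arhgap22 (0.197) for Cdkn1c and Galnt1 (0.296) for Cdkn2b. These values are descriptions over libraries that share days and number formats, and the spread of each gene over libraries, 0.18 for Ccnd3 to 1.36 for Myc in log2 CPM (SD, 14 libraries), sets how far from it other genes can lie.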

How the data were processed

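Bulk kidney RNA was sequenced from 4 day 0, 5 day 1 and 5 day 3 libraries, grouped by sample title. RNA was isolated by the TRIzol method and made into libraries with an Illumina TruSeq kit. The submitters' processing notes name Trimmomatic, STAR and mm10; versions and settings are not given in the sources used here. The deposited files hold whole-number counts of reads per gene by STAR, unstranded and for each strand; column 4 was used, since it held 98.5% to 98.7% of the strand-assigned reads. The 4 entries that name no gene, 29.0% to 38.3% of reads, were left out of library sizes and tests. Chi-square tests over genes found no pair of libraries of the same day that agreed within sampling noise.

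Genes were filtered with edgeR 4.0.16 (filterByExpr), scaled by TMM and tested with its quasi-likelihood test in R 4.3.3, once by day and once by day and number format, over all 14 libraries. Adjusted p-values are Benjamini-Hochberg over all 14300 genes, and the threshold was 0.05. SE and 95% intervals are from the same fit. CPM was computed from the counts with TMM-scaled library sizes; the nearest genes used log2 CPM with a prior count of 2 and a mean CPM of at least 1. DESeq2 1.42.0, RLE size factors, total counts, other filters, unstranded counts, each library left out, the replicate block and fits within format were alternatives. Gene models were GENCODE M21, and figures were drawn with matplotlib 3.10.9. The members, the 17 further lists and the tests were chosen with earlier results of these data known. In each of 6 pathway lists, at most 3 genes per comparison with day 0 were named: those with the largest absolute log2 fold change among called genes whose groups did not overlap and whose mean reached 1 CPM. Genes beside a printed sequence and Cdkn2a, Cdkn3, Shmt1, Egr2, Egr3, Usp28 and Kap were added after their values were seen. The scripts were tested on simulated data.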

Additional observations from a re-analysis of the deposited data

Results flagged for a closer look

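Each of the 10 genes was examined in each day for a library whose gap to its nearest neighbour, divided by the range of the day, exceeded Dixon's 95% critical value. This picked out 5 of 30 groups, where chance gives about 1 in 20, or 1.5. Ccne2 at 5.45 CPM and E2f1 at 15.3 CPM stood apart in the same library, replicate 2 of day 1, whose fellow libraries held 0.914 to 1.57 CPM of Ccne2 and 3.13 to 3.86 CPM of E2f1. Ccnd2 at 15.99 CPM stood apart in replicate 3 of day 3, where the others held 8.55 to 10.5 CPM. Ccne1 at 1.78 CPM stood apart in replicate 1 of day 0, where the others held 0.765 to 0.884 CPM. Cdkn1b at 34.3 CPM stood apart in replicate 5 of day 1, where the others held 24.7 to 27.3 CPM, and this library was still below all day 0 libraries.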

How the results depend on the processing

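Of 540 member values under other settings, 518 kept their side of the threshold, 8 calls were lost and 14 were gained. Of 840 values with 1 library left out, 814 kept their side, 15 calls were lost and 11 were gained. No called value reversed. Among the 518 and the 814 are 34 and 41 values that were not called and changed sign.

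Against day 0, the number of called members changed from 2 to 4 at day 1 with 3-digit libraries only, and from 2 to 1 at day 3 with number format as a term. For day 3 against day 1 it changed from 1 to 2 with total counts, with DESeq2 and with 3-digit libraries only. For the formats at day 1 it changed from 1 to 2 with total counts and to 3 with the libraries of the groups compared only, and at day 3 from 3 to 0 with those libraries only. Over all genes, day 3 against day 0 gave 4757 calls, or 8119 with 1-digit libraries only. Day 3 against day 1 gave 2276, or 831 with the 2 days alone and 5194 with 1-digit libraries only. With only the libraries compared, the formats at day 3 gave 76 in place of 2645 and the difference of the format effects 1243 in place of 2510. The cause was not tested.

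With 1 library left out, called members ranged from 2 to 3 at day 1 and stayed at 2 at day 3 against day 0, and ranged from 1 to 2 for day 3 against day 1, from 0 to 3 for the formats at day 1, from 0 to 4 at day 3 and from 0 to 1 for their difference. Called genes ranged from 4759 to 6533 (day 1), from 3338 to 5659 (day 3), from 1269 without replicate 4 of day 1 to 3350 without its replicate 2 (day 3 against day 1), from 1997 without replicate 2 of day 1 to 5602 (formats, day 1), from 91 without replicate 5 of day 3 to 4771 without its replicate 1 (formats, day 3) and from 1260 without replicate 1 of day 1 to 3148 (difference).

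The replicate numbers did not pair the samples: over 13 pairs with the same number, deviations from the day means correlated at -0.175 to 0.261, 4 pairs exceeded 0.1, and 1 of 14 libraries correlated best with its own number. With the replicate number as a block, called members at day 1 went from 2 to 1, since Cdkn1b had an adjusted p of 0.0526 at a log2 fold change of -0.59, and of 30 member values none other changed its call.

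With total counts in place of TMM, the share of calls that were higher went from 58.5% to 73.8% for day 3 against day 0, from 53.6% to 77.9% for day 3 against day 1, from 53.1% to 73.1% for the formats at day 1 and from 51.9% to 35% for the difference, and the median log2 fold change of all genes was 0.19, 0.18, 0.24 and -0.19. Depth limits Ccne1, Ccne2 and Cdkn2b most, with as few as 13, 15 and 32 reads in a library.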

Other observations

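Cell type markers were read as counts of genes passing edgeR's test against day 0. Of all tested genes, 42.1% passed at day 1 and 33.3% at day 3. At day 1 no list of 8 or 12 tested markers exceeded that share. At day 3 the fibroblast and pericyte and the collecting duct lists were clearly above it. The proximal tubule and macrophage lists exceeded it by few genes, which is near the share of all genes. Of 12 proximal tubule markers, 4 fell at day 1 and 6 at day 3, and their summed level went from 43985 to 47135 CPM at day 0 to 18809 to 48062 CPM at day 1 and 9592 to 20627 CPM at day 3. Kap alone averaged 29706.5 CPM at day 0, 25993 CPM at day 1 and 5641 CPM at day 3. These sums therefore follow 1 gene to a large part and do not give the size of change of the other markers. Of 8 fibroblast and pericyte markers, 2 rose at day 1 and 6 at day 3. Smooth muscle markers rose in 3 of 8 on both days, and collecting duct markers fell in 3 of 8 at day 1 and 5 of 8 at day 3. Of 8 macrophage markers, 2 rose and 1 fell at day 1, and 3 rose and 1 fell at day 3. Of 8 endothelial markers, 2 rose and 1 fell at day 1, and 0 were called at day 3, with 1 at an unadjusted p under 0.05 and 0 by DESeq2. Of 8 podocyte markers, 1 fell at day 1, and 1 rose and 1 fell at day 3. Of 8 urothelial markers, 1 rose at day 1, and 1 rose and 1 fell at day 3. Of 8 lymphocyte markers, 2 were tested and 1 of them fell on both days. The part of these shifts in the levels of the G1 genes was not tested.

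The immediate early genes were called in 10 of 14 at day 3 against day 0, all higher, and 12 of 14 were lower at day 3 than at day 1.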
